A study of Mus musculus with 8 samples.

Results

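Late in experimental autoimmune encephalomyelitis (EAE), the mouse disease used to model multiple sclerosis, a set of brain and spinal cord CD4 T cells carried transcripts of Ccl5 together with Gzmk, Eomes or both. A cell was counted in this set where it held at least 1 transcript molecule (UMI, unique molecular identifier) of Gzmk or Eomes and at least 2 of Ccl5. Of the cells kept at day 50, 405 of 1620 passed in spinal cord and 56 of 348 in brain, so 461 of 1968 at day 50 and of 21551 cells kept in all. The 3 genes of the rule are therefore high in these cells by choice, and their values are given only as a description. They are called Gzmk/Eomes/Ccl5 cells below.

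The cells came from Foxp3-Cre-YFP mice, in which Foxp3-expressing regulatory T cells are marked by a fluorescent reporter, after EAE induction. Conventional CD4 T cells with CD44 and T cell receptor β on their surface, without the reporter and without CD11b, were sorted from spinal cord and from brain freed of meninges. The groups were spinal cord and brain at day 50 and spinal cord and brain at day 14, each 1 library read by CITE-seq, which counts RNA together with DNA-tagged antibodies (here to CD69, P2X7R and CXCR6). The labels do not say how many mice a library holds, so no value below has a replicate, no test was possible, and every interval covers counting error only.

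Eomes is a T-box transcription factor best known from cytotoxic CD8 T cells and natural killer (NK) cells, where it works beside the related factor T-bet (Tbx21). Gzmk encodes granzyme K, a serine protease of cytotoxic granules, and Ccl5 a chemokine that attracts T cells and monocytes. Xcl1 encodes lymphotactin, a chemokine that draws cross-presenting dendritic cells.

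The rule was met mostly through Gzmk. In spinal cord 270 of the 405 cells held Gzmk without Eomes, 120 held both and 15 held Eomes alone, and in brain the same counts were 28, 26 and 2 of 56. Ccl5 was far above its limit in most of them, with a median of 23 UMIs per cell in spinal cord (quartiles 11 and 40, highest 428) and 29 in brain. In spinal cord 7 cells sat at exactly 2 Ccl5 UMIs and 122 at exactly 1 UMI of Gzmk plus Eomes, while just outside 16 cells held Gzmk or Eomes with 1 Ccl5 UMI and 29 with none. A further 354 spinal cord cells held at least 2 Ccl5 UMIs (median 8) and no Gzmk or Eomes, and 816 held neither. In summed counts Eomes was at 148 CPM (counts scaled to 1e+06 RNA UMIs of the group) in the spinal cord Gzmk/Eomes/Ccl5 cells and 1.69 in the other kept cells, and Gzmk was at 727 and 11.6 CPM.

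The same rule applied to day 14 gave smaller shares. It held for 25% of spinal cord cells at day 50 (95% exact Clopper-Pearson interval 22.9 to 27.2) and 4.89% at day 14 (4.46 to 5.35), and for 16.1% of brain cells at day 50 (12.4 to 20.4) and 7.94% at day 14 (7.43 to 8.48). Day 14 cells held more UMIs per cell. With each cell thinned to 2000 UMIs the shares were 19.3% at day 50 and 2.78% at day 14 in spinal cord. In brain they were 14.4% and 5.23%. Thinning left out shallower cells, keeping 1493 and 9128 cells of spinal cord at day 50 and day 14 and 250 and 9150 of brain, and the unthinned shares of these cells were 24.8% and 4.85% in spinal cord and 16.8% and 8.11% in brain. Where both Gzmk and Eomes were required, they were 7.41% at day 50 and 0.798% at day 14 in spinal cord and 7.47% and 1.46% in brain. The day 50 share thus stood above the day 14 share by more than counting error in both tissues under each of these forms. How far this reflects more such cells or fewer others was not measured, since the libraries hold 1651 and 372 deposited barcodes at day 50 and 9482 and 10742 at day 14 in spinal cord and brain.

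**Figure D1:**
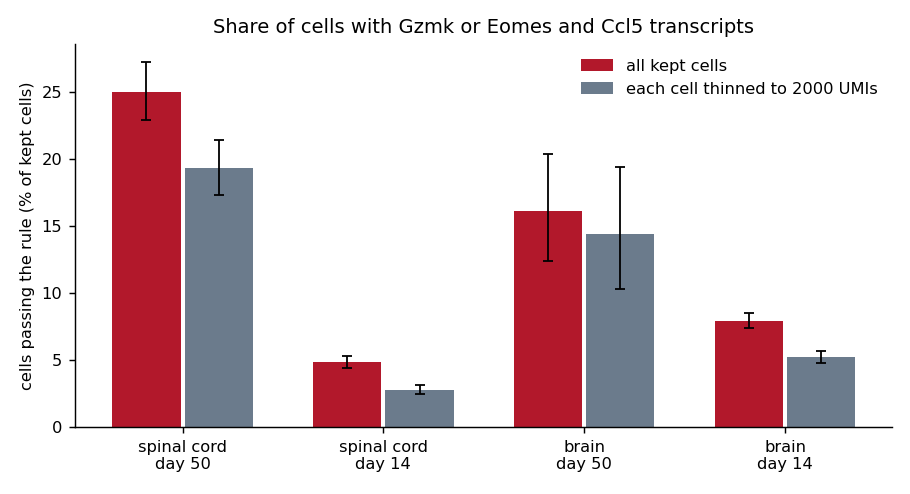
Share of kept cells passing the rule in each library (vertical axis, percent), for all kept cells (red) and with each cell thinned to 2000 UMIs (grey). Bars are shares of 1 library and black lines exact 95% intervals. The spinal cord share is 25% at day 50 and 4.89% at day 14, and the brain share 16.1% and 7.94%.

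The Gzmk/Eomes/Ccl5 cells were CD4 T cells by their markers. Cd4, the 3 CD3 chains and the 3 receptor constant genes summed to 7515 CPM in these cells and 6531 CPM in other kept cells of spinal cord, and every one of the cells held at least 1 such UMI. Cd8a and Foxp3 were at 0, and the B cell markers Cd79a, Cd79b and Ms4a1 were at 0 in all 461 cells. Cd8b1 was detected, with 8 UMIs in 8 of 405 spinal cord cells and 22 UMIs in 21 of 1215 others (5.97 and 4.64 CPM). It had 1 UMI in the 56 brain cells and 4 UMIs in the 292 others. Of 6 NK cell markers 2 were detected in spinal cord, in 4 cells against 25 other kept cells, with Ncr1 and Klrb1c at 0, and none was detected in brain. γδ T cell markers had UMIs in 13 of 405 (3.21%) and 70 of 1215 (5.76%) cells in spinal cord. In brain they had UMIs in 4 of 56 and 5 of 292 cells. With cells left out that held a UMI of Cd8a, Cd8b1, 4 γδ receptor genes, Cd74 or Zbtb16, an alternative added after seeing the data called 493 genes higher and 512 lower in spinal cord. The set had been proposed under the name memory-like, and this name was not borne out by the memory genes. Of 14 memory and stem-like genes measured in spinal cord 8 were lower and 1, Cd27, was higher than in other kept cells, where 5.23% of all genes were lower and 5.04% higher. In brain 3 of 13 were lower, Cd27 was higher and 9 were not called (median log2 ratio -0.19), where 3.19% of all genes were lower and 4.39% higher.

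Across all genes, 505 of the 10014 genes with at least 10 UMIs were called higher in the spinal cord Gzmk/Eomes/Ccl5 cells than in the other kept cells (5.04%) and 524 lower (5.23%). A gene was called where its ratio was at least 1.5-fold and the exact 95% interval of the ratio excluded 1. In brain 304 of 6921 were called higher (4.39%) and 221 lower (3.19%). The median log2 ratio over all genes was 0.0085 in spinal cord and 0.0096 in brain. Of 324 genes called higher in spinal cord and 301 in brain among the 6914 measured in both, without the rule's genes, 67 were shared (20.7% and 22.3%). Of 425 and 221 called lower, 113 were shared (26.6% and 51.1%). These cells held a median of 3091 UMIs and the other kept cells 3628 in spinal cord, and 2959 and 3020 in brain.

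Ccl4 and Ccl3, which encode inflammatory chemokines, were among the most strongly higher. Ccl4 was at 356 CPM in the spinal cord Gzmk/Eomes/Ccl5 cells and 25.1 CPM in other kept cells, a log2 ratio of 3.83 (interval 3.53 to 4.13). In brain the levels were 1571 and 33.0 CPM (5.57, 5.05 to 6.14). The transcript was unevenly spread: 100 of 405 spinal cord cells (24.7%) held a Ccl4 UMI and 28.2% of all UMIs sat in the 2 richest cells, while 28 of 56 brain cells held one. Ccl3 had 72 UMIs in the Gzmk/Eomes/Ccl5 cells and 18 in other kept cells of spinal cord (3.82), and 23 and 3 UMIs in brain (5.43). These came from only 21 spinal cord and 8 brain Gzmk/Eomes/Ccl5 cells, with 58.3% of the spinal cord UMIs in 2 cells. Its annotated span overlaps that of Ccl4 on chromosome 11, so reads of the pair may not be fully apart.

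Xcl1, a gene the set was proposed on but the rule did not use, was not set apart in spinal cord. It was at 292 CPM in the Gzmk/Eomes/Ccl5 cells and 239 CPM in other kept cells (log2 ratio 0.28, interval 0.12 to 0.45, under the 1.5-fold limit). In brain it was at 196 and 70.0 CPM (1.49, 0.86 to 2.09). Against only those other cells that held 2 or more Ccl5 UMIs without Gzmk or Eomes, the log2 ratio was -0.70 in spinal cord and -0.34 in brain. After thinning to 2000 UMIs, 92 of 371 spinal cord Gzmk/Eomes/Ccl5 cells held Xcl1 (24.8%), 75 held Ccl4, and 10 held both. Of 1122 other kept cells 206 held Xcl1 (18.4%) and 20 held Ccl4.

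No measured gene of the cytotoxic list was called lower in either tissue, and the granule protein Nkg7 was found in nearly every cell. In spinal cord 7 of 13 measured cytotoxic genes were higher and none lower (median log2 ratio 0.90), and in brain 4 of 11 were higher and none lower (0.97). All-gene shares were 5.04% higher and 5.23% lower in spinal cord, and 4.39% and 3.19% in brain. Nkg7, which takes part in the release of cytotoxic granules, was at 1926 CPM against 574 CPM in spinal cord (1.75, 1.67 to 1.82) and 1565 against 324 CPM in brain (2.27, 2.04 to 2.51). It was found in 388 of 405 spinal cord Gzmk/Eomes/Ccl5 cells and 631 of 1215 others. Prf1, the pore-forming perforin, had 54 UMIs in 48 cells against 14 in 13 cells in spinal cord (3.77, 2.90 to 4.73) and 4 against 6 UMIs in brain, where it was not called. Cst7, an inhibitor of cathepsins, was at 93.2 and 42.6 CPM in spinal cord and 151 and 33.0 CPM in brain. Fasl, the death receptor ligand, was at 140 and 75.4 CPM in spinal cord and 129 and 66.0 CPM in brain. Gzmb was at 51.5 and 25.1 CPM in spinal cord (1.03), while Gzma had 5 and 33 UMIs and was not called. NK-type receptors did not follow in spinal cord: 1 of 9 was higher there, Klrg1 with 22 UMIs against 16, and 4 were lower (background 5.04% and 5.23%), among them Klrd1 (41.8 and 79.0 CPM), Klrc1 (8 and 109 UMIs) and Cd226 (55.2 and 137 CPM). In brain none of 6 was higher and 1 was lower, with a median of 0.59 over the 5 with a ratio.

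Eomes, a gene of the rule that most of these spinal cord cells passed without, is a T-box factor. The 300-base promoter windows of Gzmk, Nkg7 and Xcl1 are therefore shown, 250 bases before to 50 after the annotated start, from RefSeq on GRCm38.p6. Capitals mark the letters GGTGTGA, the core of the T-box motif, searched on both strands. The windows lie at chr13:113180916-113181215 (minus strand), chr7:43436888-43437187 (plus strand) and chr1:164935473-164935772 (minus strand), each read 5′ to 3′ along its gene.
Gzmk: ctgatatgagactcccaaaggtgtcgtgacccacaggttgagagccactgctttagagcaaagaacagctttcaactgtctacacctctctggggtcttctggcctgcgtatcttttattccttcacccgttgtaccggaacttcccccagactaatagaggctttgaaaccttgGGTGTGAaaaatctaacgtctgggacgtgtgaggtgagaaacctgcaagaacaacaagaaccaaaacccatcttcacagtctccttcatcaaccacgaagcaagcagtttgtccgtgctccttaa
Nkg7: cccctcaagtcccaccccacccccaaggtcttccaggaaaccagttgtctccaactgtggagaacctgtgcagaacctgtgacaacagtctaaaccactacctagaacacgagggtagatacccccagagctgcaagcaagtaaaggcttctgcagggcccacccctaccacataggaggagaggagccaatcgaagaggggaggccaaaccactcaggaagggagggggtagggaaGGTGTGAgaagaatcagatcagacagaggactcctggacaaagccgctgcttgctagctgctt
Xcl1: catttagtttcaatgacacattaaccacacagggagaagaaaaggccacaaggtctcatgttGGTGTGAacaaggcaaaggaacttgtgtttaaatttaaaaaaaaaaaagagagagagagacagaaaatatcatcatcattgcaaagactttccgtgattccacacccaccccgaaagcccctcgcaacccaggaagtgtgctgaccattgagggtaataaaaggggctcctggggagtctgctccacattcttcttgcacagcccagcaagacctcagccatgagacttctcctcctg
The match begins 75 bases before the start site in Gzmk, 13 before in Nkg7 and 188 before in Xcl1. These 3 windows were chosen because they hold a match. Among the named genes with a window, 3 of 21 called higher in spinal cord hold it (Gzmk, Isg15, Nkg7) and 2 of 37 called lower (AA467197, P2rx7), against 3.98% of all 32851 windows. With 1 base less, GGTGTG, 7 of 21 and 15 of 37 match, against 19% of all windows. Gzmk is in both higher counts, and as a gene of the rule it was high by choice. A gene was counted where any of its windows matched, so the gene counts and the shares of windows are unlike measures. Ccl5, Ccl4, Sh2d1a and Il10 have no window in the table. A match describes the sequence only.

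Transcripts of other kinds were higher as well. Igkc, the immunoglobulin κ constant gene, had 273 UMIs in 107 of 405 spinal cord Gzmk/Eomes/Ccl5 cells (26.4%), against 16 UMIs in 8 of 1215 other kept cells, which is 204 and 3.38 CPM (5.91, 5.19 to 6.74). In brain it had 26 UMIs in 16 of 56 cells and 5 UMIs in 3 of 292. No cell held more than 9 of these UMIs in the spinal cord set, and Cd79a, Cd79b and Ms4a1 were at 0 there. Ier3, an immediate early gene linked to cell survival, was at 159 and 9.29 CPM in spinal cord (4.10, 3.62 to 4.60) and 123 and 20.0 CPM in brain (2.63). Sh2d1a, which encodes the SLAM receptor adaptor SAP, was at 468 and 143 CPM in spinal cord and 499 and 141 CPM in brain (1.71 and 1.82). Dcp1b, a factor of mRNA decapping, was at 82.0 and 10.8 CPM in spinal cord and 78.5 and 11.0 CPM in brain. Serpina3g, a serine protease inhibitor with close paralogues, and Tspan3, a tetraspanin, were called higher in both tissues. Ifit3 (53.7 and 15.4 CPM), an interferon-induced gene with a near-identical copy, was called in spinal cord and not in brain.

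**Figure D2:**
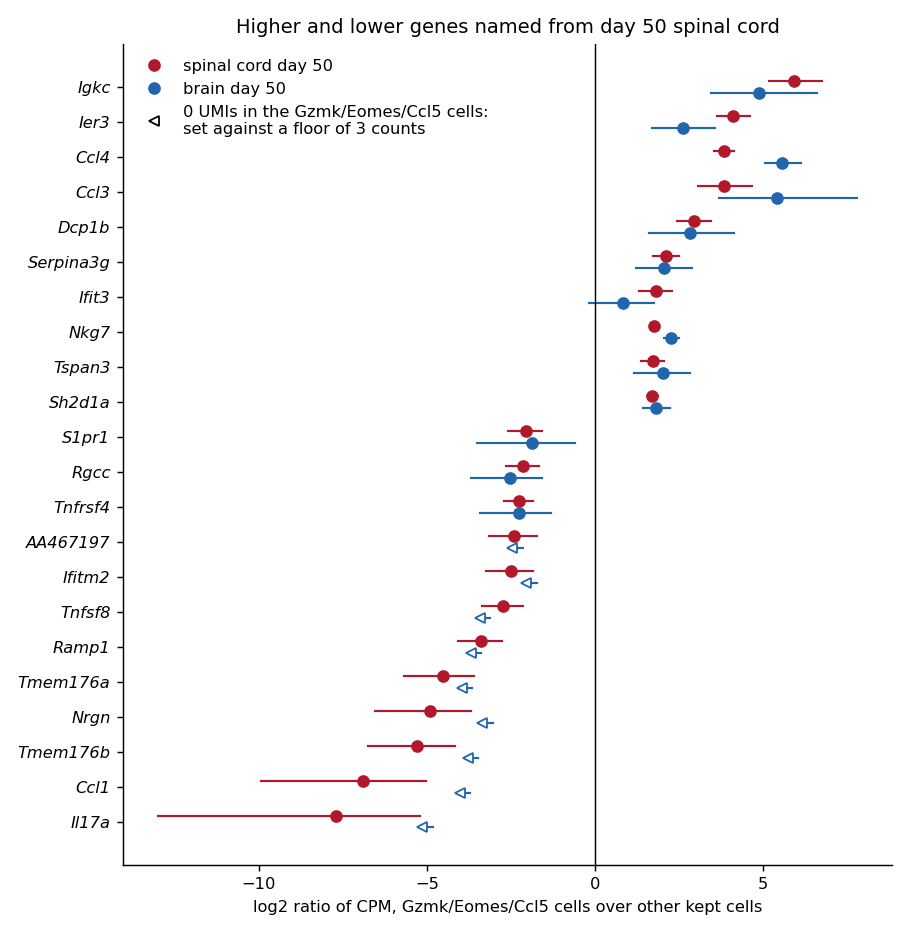
Log2 ratio of CPM, Gzmk/Eomes/Ccl5 cells over other kept cells of the same library (horizontal axis), for leading higher and lower genes named from day 50 spinal cord. Points are ratios of summed counts in spinal cord (red) and brain (blue), lines their exact 95% intervals, and open triangles genes with 0 UMIs in the Gzmk/Eomes/Ccl5 cells, set against a floor of 3 counts. Igkc is at 5.91 and Il17a at -7.69 in spinal cord.

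Several transcription factors and regulatory genes were higher in both tissues. Of 18 lineage and memory factors 6 were higher and 6 lower in spinal cord, and 5 were higher and 3 lower in brain. Among all genes 5.04% were higher and 5.23% lower in spinal cord, and 4.39% and 3.19% in brain. Tox, known from persistently stimulated T cells, was at 78.3 and 25.8 CPM in spinal cord and 84.2 and 28.0 CPM in brain (1.60 and 1.59). Maf, which drives Il10 in several T cell types, was at 192 and 88.4 CPM in spinal cord and 443 and 161 CPM in brain (1.12 and 1.46). Runx3, a factor of the cytotoxic lineage, was at 172 and 90.8 CPM in spinal cord and 196 and 78.0 CPM in brain (0.92 and 1.33). Tbx21 went the other way, with 9 and 79 UMIs in spinal cord (-1.31), and 1 and 14 UMIs in brain, where it was not called. Of 10 genes linked to type 1 regulatory (Tr1) cells, 6 were higher and 2 lower in spinal cord (median 1.04), and in brain 2 of 7 were higher and none lower (0.75). Il10 was among them with 15 UMIs in 13 cells against 3 UMIs in 3 cells of spinal cord (4.14, 2.32 to 6.57), and 2 against 1 in brain. Its receptor chain Il10ra was at 23.1 and 6.54 CPM in spinal cord. Lag3, often used to mark Tr1 cells, was at 22.4 and 27.2 CPM and was not called. Among 9 inhibitory receptors in spinal cord, Havcr2 (14 and 13 UMIs), Tigit (19 and 27) and Entpd1 (51 and 82) were higher and 4 were lower, including Ctla4 at 115 and 195 CPM, Cd200 at 7 and 208 UMIs, and Pdcd1, which was called higher in brain.

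No measured gene of the Th17 list was called higher in either tissue. In spinal cord 10 of 11 measured Th17 genes were lower and none higher, with a median log2 ratio of -2.43, in which 7 genes stand at the floor because the Gzmk/Eomes/Ccl5 cells held none. In brain 4 of 8 were lower and 4 were not called, with 7 at the floor. Among all genes 5.23% were lower in spinal cord and 3.19% in brain. Il17a had 1 UMI in the spinal cord Gzmk/Eomes/Ccl5 cells against 731 UMIs in 44 of 1215 other kept cells, and 0 against 592 UMIs in brain, at least 35.2-fold lower against a floor of 3 counts. Tmem176b and Tmem176a, membrane protein genes high in Th17 cells, had 6 and 835 UMIs and 9 and 739 UMIs in spinal cord (-5.30 and -4.54), and 0 UMIs each in the brain Gzmk/Eomes/Ccl5 cells. Ccl1, a chemokine gene, had 2 and 840 UMIs in spinal cord and 0 and 272 in brain, but 58.2% and 98.2% of the UMIs in other kept cells came from 2 cells each. Of 15 effector cytokine genes 8 were lower in spinal cord (median -1.43), among them Tnfsf8 (18.6 and 123 CPM), Cd40lg (68.6 and 185 CPM), Csf2 (1 and 72 UMIs) and Spp1 (0 and 140 UMIs, 15 cells). Ifng, the main Th1 cytokine, was not among them, at 357 and 318 CPM in spinal cord (0.17, 0.02 to 0.32). In brain Ifng was at 421 and 268 CPM (0.65, 0.26 to 1.02) and was called higher, but against other brain cells with 2 or more Ccl5 UMIs the ratio turned to -0.43.

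Genes of recirculation were lower in both tissues, and genes of quiescent memory were lower mainly in spinal cord, 8 of 14 there and 3 of 13 in brain. Of 8 egress genes 6 were lower in spinal cord and none higher (median -1.49), and 5 of 8 were lower in brain (-1.10). The share of all genes called lower was 5.23% in spinal cord and 3.19% in brain. S1pr1, the receptor T cells use to leave tissue, was at 27.6 and 115 CPM in spinal cord (-2.05, -2.58 to -1.57) and 28.1 and 102 CPM in brain. Klf2, the factor that drives S1pr1, was at 34.3 and 125 CPM in spinal cord and 247 and 436 CPM in brain (-1.86 and -0.82). Ccr7, the lymph node homing receptor, had 2 and 109 UMIs in spinal cord and 0 and 56 in brain. Tcf7, a factor of memory and stem-like T cells, was at 61.9 and 135 CPM in spinal cord and 39.3 and 124 CPM in brain (-1.13 and -1.66). Il7r, the survival receptor of memory T cells, was at 189 and 428 CPM in spinal cord (-1.18) and 252 and 365 CPM in brain, where it was not called. Satb1, a chromatin organiser, was at 27.6 and 109 CPM in spinal cord and 22.4 and 101 CPM in brain. Cd27, a costimulatory receptor, was the exception at 130 and 46.9 CPM in spinal cord and 135 and 44.0 CPM in brain (1.47 and 1.61). Ltb, Lef1 and Bcl2 were not called in either tissue.

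Residency genes were divided. Of 17 in spinal cord, Runx3 and Prdm1 were higher and 5 were lower (median -0.64), where 5.04% of all genes were higher and 5.23% lower. Cd69 was lower in spinal cord (216 and 336 CPM, -0.64) and not in brain (713 and 741 CPM). Cxcr6 was at 298 and 315 CPM in spinal cord and 292 and 333 CPM in brain, and was not called. P2rx7, the ATP receptor, was at 26.1 and 46.4 CPM in spinal cord (-0.83) and had 2 and 32 UMIs in brain.

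The antibody counts, which the rule did not use, give these 3 proteins directly. In spinal cord the median Gzmk/Eomes/Ccl5 cell carried 2 P2X7R UMIs (quartiles 1 and 8) and the median other kept cell 9 (3 and 17). CXCR6 stood at 7 (2 and 17) and 12 (3 and 25), and CD69 at 5 (2 and 10) and 4 (1 and 14). The quartile ranges overlapped for all 3. P2X7R made up 21.6% of antibody UMIs on the Gzmk/Eomes/Ccl5 cells and 28.7% on the others, while CXCR6 made up 48.5% and 45.2%, so that CXCR6 was lower per cell and not as a share. Within cells of 2000 to 6000 RNA UMIs the medians were the same. In brain the counts were near 0, with medians of 0 and 1 for P2X7R, 3 and 3 for CXCR6, and 2.5 and 1 for CD69. P2X7R was not detected on 33 of 56 Gzmk/Eomes/Ccl5 cells (58.9%) and 98 of 292 other kept cells (33.6%). At day 14 the P2X7R medians were 5 and 9 in spinal cord and 3 and 5 in brain.

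**Figure D3:**
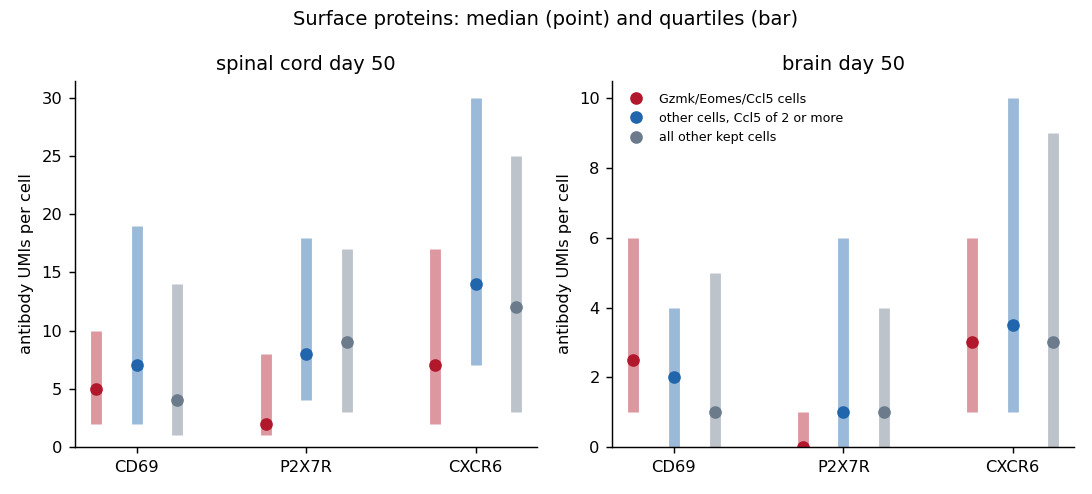
Antibody UMIs per cell (vertical axis) for 3 surface proteins in the day 50 libraries, on Gzmk/Eomes/Ccl5 cells (red), other cells with 2 or more Ccl5 UMIs and no Gzmk or Eomes (blue) and all other kept cells (grey). Points are medians over cells of 1 library and bars quartiles. In spinal cord P2X7R has a median of 2 on Gzmk/Eomes/Ccl5 cells and 9 on all other kept cells.

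Signalling and metabolic groups differed in direction. For comparison, 5.04% of all genes were higher and 5.23% lower in spinal cord, and 4.39% and 3.19% in brain. Of 14 T cell receptor response genes 9 were lower in spinal cord and 1, Nr4a2, was higher (median -1.10). In brain 4 of 14 were lower and 2 higher (-0.80). Tnfrsf4, which encodes OX40, had 47 and 797 UMIs in spinal cord and 9 and 244 UMIs in brain (-2.26 and -2.27), and Nr4a1 was at 34.3 and 75.8 CPM in spinal cord. Nr4a2 was at 147 and 69.0 CPM in spinal cord and 303 and 68.0 CPM in brain (1.09 and 2.16). Of 8 receptors or receptor chains of the common γ chain family 5 were lower in spinal cord and Il15ra was higher, with 26 and 39 UMIs (1.24). In brain all 7 measured were not called (median -0.26). Of 11 glycolysis genes 5 were lower in spinal cord and 5 of 10 in brain, among them Hk2, Tpi1 and Ldha (295 and 488 CPM in spinal cord). Of 13 interferon response genes 6 were higher in spinal cord and none lower (median 0.68). In brain 1 of 13 was higher (0.023), near the share of all genes there. Of 14 proliferation genes 5 were higher in spinal cord (0.67) and none in brain, where 3 of 11 were lower. With the rule applied after thinning to 2000 UMIs the spinal cord median turned to -0.36. The spinal cord values there rest on few cells, since Stmn1 had 118 UMIs in 12 of 405 cells and Rrm2 24 UMIs in 7.

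**Figure D4:**
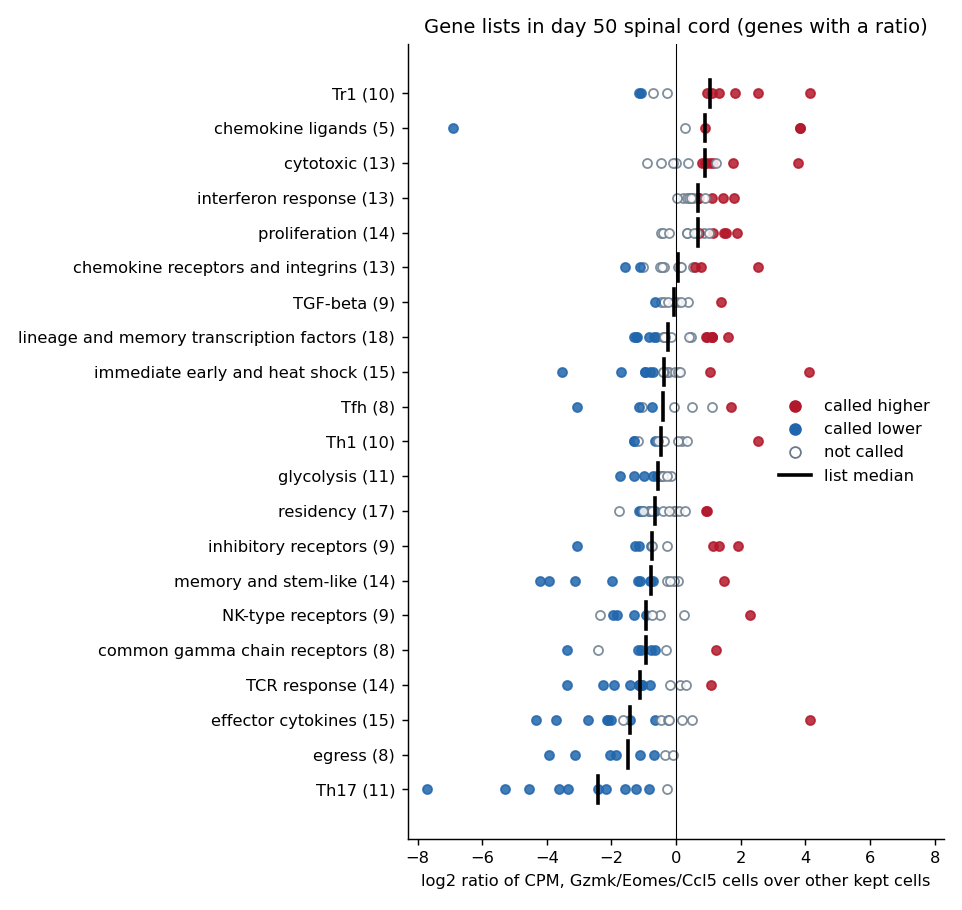
Log2 ratio of CPM, Gzmk/Eomes/Ccl5 cells over other kept cells in day 50 spinal cord (horizontal axis), for the genes of 21 lists. Points are genes, filled red where called higher, blue where called lower and open where not called, and black bars are list medians. The number of genes with a ratio stands in brackets. The Tr1 list has the highest median, 1.04, and the Th17 list the lowest, -2.43.

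Other cells with Ccl5 shared the difference only in part, more for S1pr1 and Il17a than for Ccl4, Igkc and Sh2d1a. Cells with 2 or more Ccl5 UMIs and no Gzmk or Eomes held intermediate levels of Nkg7 in spinal cord, at 1071 CPM, between 1926 in the Gzmk/Eomes/Ccl5 cells and 345 in cells with neither. S1pr1 was at 27.6, 47.4 and 145 CPM over the same 3 groups, and Il17a at 0.746, 24.4 and 218 CPM. Ccl4 was at 356, 51.8 and 14.1 CPM. Igkc was at 204 and 11.8 CPM in the first groups and at 0 in the last. Sh2d1a stood at 468 CPM in the Gzmk/Eomes/Ccl5 cells, against 166 and 131 CPM in the others. Against the Ccl5-positive cells alone, 315 genes were called higher and 318 lower in spinal cord, with log2 ratios of 0.85 for Nkg7, 2.78 for Ccl4 and 4.10 for Igkc. The P2X7R median was 2 in the Gzmk/Eomes/Ccl5 cells and 8 in those Ccl5-positive cells, and the CXCR6 median 7 and 14. Over all other kept cells these medians were 9 and 12, so the lower counts were not shared by the Ccl5-positive cells.

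Within the set, cells with an Eomes UMI were set beside those without, some of which may hold Eomes below detection. In spinal cord 144 of 7135 genes were called higher and 193 lower in the 135 cells with an Eomes UMI, against the 270 without. In brain 57 of 2094 were called higher and 45 lower. Both are small shares, and whether they exceed what counting error alone would give was not tested. Most genes given here were picked from these same calls. Ier3 was at 282 CPM with and 101 CPM without Eomes (1.48). Smad7, an inhibitor of TGF-beta signalling, was at 326 and 188 CPM (0.80). Ifng ran the other way, at 172 CPM with and 444 CPM without Eomes (-1.37), and so did Il18r1, a receptor chain for interleukin 18, at 30.3 and 104 CPM. Ly6c2 had 1 UMI in the cells with Eomes and 126 UMIs in 27 of the cells without, and Plac8 had 8 and 124 UMIs. Ly6c2 has a close paralogue, Ly6c1, with which its reads may be confused. Ifitm1, also called higher with Eomes, rested on 46 UMIs of a single cell. In brain, with 28 cells on each side, Ccl3 had 21 and 2 UMIs, and Ifng was at 277 and 569 CPM.

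**Figure D5:**
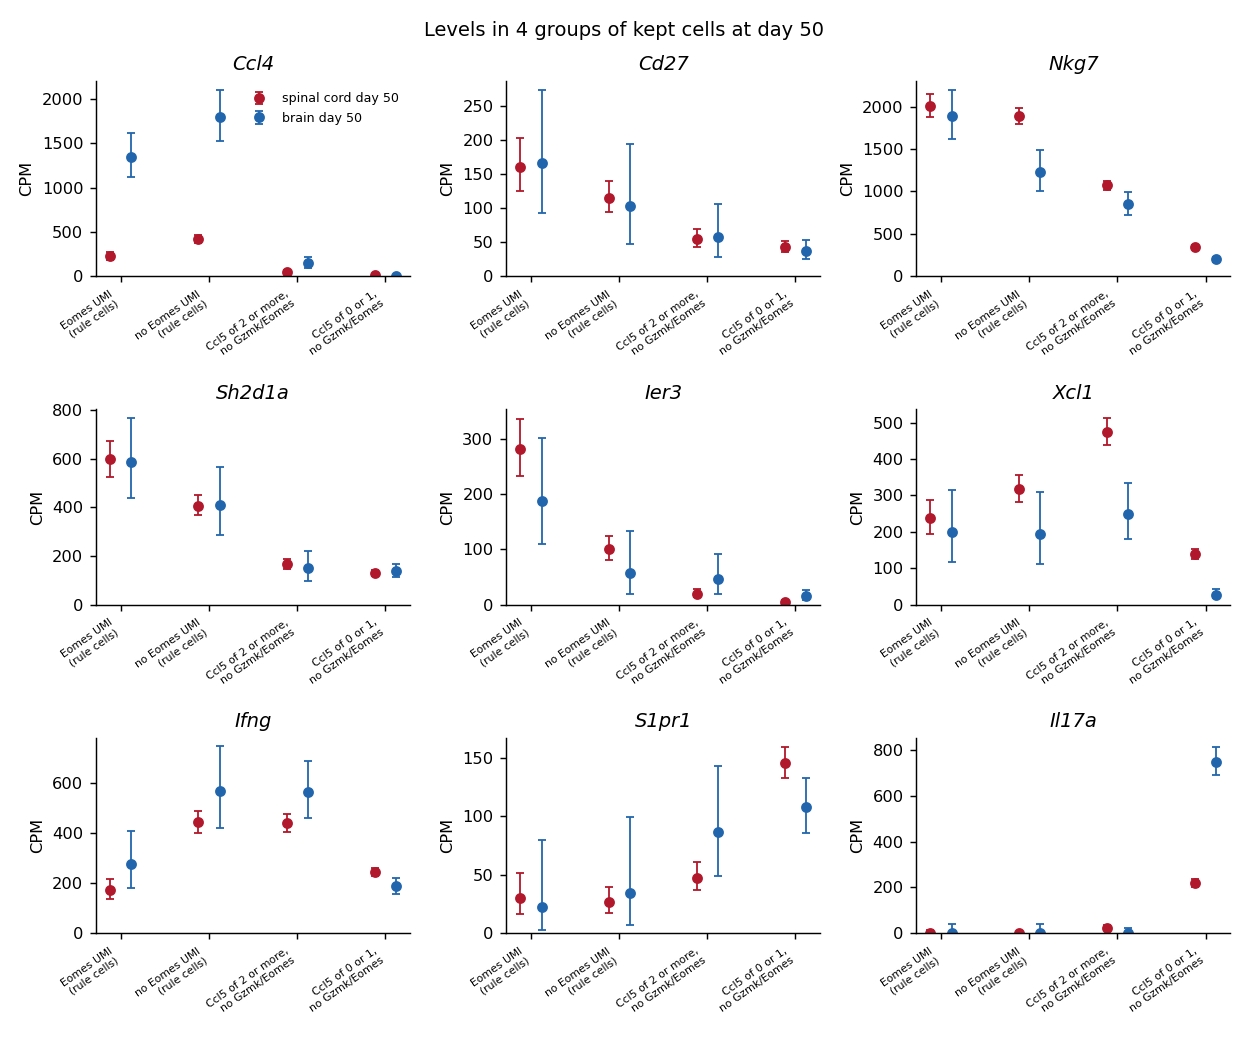
CPM (vertical axis) of 9 genes in 4 groups of day 50 cells, from left to right Gzmk/Eomes/Ccl5 cells with and without an Eomes UMI, other cells with 2 or more Ccl5 UMIs, and cells with neither. Points are summed counts of 1 library (red spinal cord, blue brain) and lines exact Poisson 95% intervals. Nkg7 in spinal cord is at 2007 CPM in the first group and 345 in the last, and Il17a is highest in the last group.

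At day 14 the cells passing the same rule shared part of this pattern. Against other kept cells 590 of 12978 genes were called higher (4.55%) and 583 lower (4.49%) in spinal cord, and 533 of 12759 higher (4.18%) and 620 lower (4.86%) in brain. Nkg7 was at 1469 and 728 CPM in spinal cord (1.01) and 1471 and 581 CPM in brain (1.34). Cd27 was at 107 and 15.6 CPM in spinal cord (2.77) and Tox at 52.9 and 10.1 CPM (2.39). Igkc was higher at this time too, with 289 and 47 UMIs in spinal cord (6.95) and 710 and 141 UMIs in brain (5.72). The Th17 list was lower in all but 1 of its 12 genes in spinal cord (median -2.30), as it was in 10 of 11 at day 50. The egress list was not: none of 8 genes was lower and 1 was higher in spinal cord at day 14 (median -0.13), and S1pr1 was at 103 and 85.9 CPM there. Gzmb and Gzma, in contrast, stood out at day 14. Gzmb was at 222 and 23.4 CPM in spinal cord (3.25) and had 1184 and 1554 UMIs in 819 and 9494 brain cells, and Gzma at 138 and 56.4 CPM in spinal cord (1.29). Of genes called higher in spinal cord, 131 were shared by the 495 at day 50 and the 475 at day 14 (26.5% and 27.6%), among 9989 measured at both times.

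Cells passing the rule at day 50 were compared with those passing it at day 14 in spinal cord. The median log2 ratio over all genes was -0.30 in these cells, and it was subtracted from the ratios given here. Of 9496 genes 1013 were called higher (10.7%) and 907 lower (9.55%). Without the subtraction the counts were 480 and 1869. The groups also differed in depth (median 3091 UMIs at day 50, 4353 at day 14) and in the share of UMIs from ribosomal protein genes (36.8% and 29.8%), whose part in the result was not tested.

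Xcl1 led the genes that were higher at day 50. It had 391 UMIs in the 405 spinal cord cells at day 50, or 292 CPM, against 7 UMIs in the 453 cells at day 14, or 2.91 CPM (log2 ratio 6.94, 5.88 to 8.27). In other kept cells of spinal cord it was at 239 and 91.4 CPM (1.70). In brain cells passing the rule it was at 196 and 35.2 CPM (2.48), and in other brain cells at 70.0 and 62.6 CPM. At day 14 Xcl1 was therefore lower in spinal cord cells passing the rule than in the others of that library, where at day 50 it was not. Thinned to 2000 UMIs, 18.4% of other spinal cord cells held Xcl1 at day 50 and 1.36% at day 14. Among other brain cells the shares were 6.25% and 1.27%. For cells passing the rule they were 24.8% and 0.451% in spinal cord and 26.2% and 3.10% in brain. The day 14 CPM of the other cells thus rests on a small share of them, and their share with Xcl1 was also larger at day 50. Gzma and Gzmb, granzyme genes, were lower at day 50. Gzma was at 3.73 CPM at day 50 and 138 at day 14 (-4.91) in spinal cord cells passing the rule, and at 0 UMIs and 208 CPM in brain. Gzmb was at 51.5 and 222 CPM in spinal cord (-1.81) and 16.8 and 287 CPM in brain (-4.09).

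Other genes with large differences between the days were set beside the remaining spinal cord cells, where some differed alike and others did not. Nr4a2 was at 147 CPM at day 50 and 26.6 at day 14 in spinal cord cells passing the rule (2.76), and at 69.0 and 32.8 CPM in the others (1.38). Odc1, an enzyme of polyamine synthesis, was at 591 and 122 CPM in cells passing the rule and 775 and 177 CPM in the others (2.57 and 2.44). Ier3 was at 159 and 14.2 CPM in cells passing the rule (3.78) and 9.29 and 9.89 CPM in the others (0.22). Lgals3, which encodes galectin 3, was at 58.9 and 379 CPM in cells passing the rule (-2.39) and 93.1 and 265 CPM in the others (-1.20). S1pr1 was at 27.6 CPM at day 50 and 103 at day 14 in cells passing the rule (-1.60), and at 115 and 85.9 CPM in the others (0.73). Klf2 was at 34.3 and 135 CPM in cells passing the rule (-1.68) and 125 and 131 CPM in the others (0.24), and Tcf7 at 61.9 and 123 CPM (-0.69) and 135 and 110 CPM (0.61). The difference between the cells passing the rule and the others in these ratios was not tested. Nkg7 (1926 and 1469 CPM, 0.69) and Tox (78.3 and 52.9 CPM, 0.86) were called higher at day 50 only with the all-gene median subtracted, since their CPM ratios alone are under 1.5-fold. Cd27 (130 and 107 CPM), Maf (192 and 175 CPM) and Il10 (11.2 and 12.1 CPM) were not called. In other spinal cord cells 1488 of 13066 genes were called higher (11.4%) and 1369 lower (10.5%), so that the cells passing the rule were near the rest in this count. In brain the counts were 374 of 9533 higher (3.92%) and 400 lower (4.2%) in cells passing the rule, and 603 of 12678 higher (4.76%) and 674 lower (5.32%) in the others.

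Between the Gzmk/Eomes/Ccl5 cells of spinal cord and brain at day 50, 114 of 7454 genes were called higher in spinal cord (1.53%) and 210 lower (2.82%), with 56 cells on the brain side. Fos, an immediate early gene, was at 115 CPM in spinal cord and 898 in brain (-2.97, -3.30 to -2.64), and at 225 and 988 CPM in other kept cells (-2.13), so the remaining cells differed too. Klf2 was at 34.3 and 247 CPM in Gzmk/Eomes/Ccl5 cells (-2.85) and 125 and 436 CPM in others (-1.81). Klf6 was at 174 and 623 CPM in Gzmk/Eomes/Ccl5 cells and 201 and 555 CPM in others. Cd69 was at 216 and 713 CPM in Gzmk/Eomes/Ccl5 cells (-1.73) and 336 and 741 CPM in others (-1.14). Ccl4 was lower in the spinal cord Gzmk/Eomes/Ccl5 cells, 356 and 1571 CPM (-2.14, -2.36 to -1.92), and close in the other cells, 25.1 and 33.0 CPM (-0.39). This ratio is of summed UMIs that were unevenly spread over cells. After thinning to 2000 UMIs, 75 of 371 spinal cord Gzmk/Eomes/Ccl5 cells held Ccl4 (20.2%, 16.2 to 24.7). In brain 15 of 42 did (35.7%, 21.6 to 52.0), and the 2 intervals overlap. Of 14 immediate early and heat shock genes 7 were lower in spinal cord Gzmk/Eomes/Ccl5 cells and none higher, and in other kept cells 10 of 15. Over all genes 267 of 9975 were higher (2.68%) and 410 lower (4.11%) in spinal cord in those other cells. Their part in the tissue difference was not tested. Gzmk was at 727 and 696 CPM and Ccl5 at 11190 and 11878 CPM, both genes of the rule, and Eomes at 148 and 281 CPM. Nkg7, Ifng, Cxcr6 and Prf1 were not called between the tissues.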

How the data were processed

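The authors deposited raw UMI counts per gene and cell barcode, 1 matrix for each of 4 RNA libraries with 3 antibody features, per the file headers. The submitters' processing notes name Cell Ranger 6.1.1 and mm10. Antibody identifiers read CD69, P2X7R and CXCR6 while 2 of the feature names read CD3 and CD16. The identifiers were used, since the labels name these proteins.

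A barcode was kept if it showed 500 or more genes with no more than 10% of UMIs mitochondrial (1620, 348, 9270 and 10313 in spinal cord and brain at day 50 and at day 14). The cells, lists and named genes were chosen with earlier results of these data known. Counts were summed over the cells of a group and scaled to CPM, with exact Poisson 95% intervals. Ratios carry exact conditional binomial 95% intervals. Genes with at least 10 UMIs over both groups were compared, and a group at 0 was set at a floor of 3 counts per group (2.24 CPM for the spinal cord Gzmk/Eomes/Ccl5 cells, 16.8 in brain). Doublets were left in. Scrublet (scanpy 1.11.5) called 13 cells in spinal cord and 5 in brain at day 50, 3 of them in the set, and leaving them out is an alternative. No cell type lacking these genes was at hand to measure free RNA. Day 50 and day 14 spinal cord libraries shared 4 barcodes, and the day 50 libraries none. The ratios and their intervals were tested on simulated Poisson sums with known ratios in scipy 1.17.1. That simulation holds no clustering of UMIs in single cells, so it does not cover genes whose UMIs sat in few cells. Named genes are the rule's 3, the 12 higher and 12 lower in spinal cord with the interval farthest from 0 at 50 CPM or more, up to 3 per list, 22 focal genes, and 5 each way by day and tissue, 95 in all. Some of them are not reported here. A few others were named after their values were seen.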

Additional observations from a re-analysis of the deposited data

Results flagged for a closer look

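Stmn1, which encodes a microtubule regulator high in dividing cells, lay on opposite sides in the day 50 libraries. In spinal cord it had 118 UMIs in the Gzmk/Eomes/Ccl5 cells and 143 in other kept cells, 88.0 and 30.2 CPM, a log2 ratio of 1.54. In brain it had 2 and 56 UMIs, 11.2 and 56.0 CPM, a log2 ratio of -2.32. The difference between the tissues was not tested. In spinal cord 61.0% of its UMIs in the set came from 2 cells, and without the 2 richest cells on each side the spinal cord ratio was 1.12.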

How the results depend on the processing

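No paired analysis was possible because there is 1 library for each tissue and day. The comparators limited to Ccl5-positive or Ccl5-low cells and the removal of cells with other-lineage UMIs were chosen after seeing the data. Genes called higher and lower in spinal cord numbered 505 and 524. They moved by over 1.5 times to 321 higher with each cell thinned to 2000 UMIs, 313 and 807 without the 2 richest cells per gene, 283 and 301 at a 2-fold limit, and 315 and 318 against other cells with Ccl5. In brain the 304 higher and 221 lower moved to 142 and 132 after thinning, 146 and 103 with rule and sums after thinning, 192 and 148 when both Gzmk and Eomes were required, 84 and 488 without the 2 richest cells, and 107 higher against cells with Ccl5. Day 50 against day 14 in spinal cord gave 480 and 1869 without the median subtracted. Spinal cord against brain gave 68 and 136 after thinning. The shares were 19.3%, 2.78% and 5.23% after thinning in spinal cord at day 50, spinal cord at day 14 and brain at day 14. With 5 Ccl5 UMIs they were 4.35% in spinal cord and 7.06% in brain at day 14. With both genes they were 7.41% and 7.47% at day 50 and 0.798% and 1.46% at day 14 in spinal cord and brain.

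In spinal cord the inhibitory receptor median turned to 0.18 against cells with Ccl5 and the proliferation median to -0.36 with the rule after thinning. In brain the NK-type receptor median of 0.59 turned to -0.10 with the rule after thinning, -0.19 with both genes, -0.93 without the 2 richest cells, -0.058 at 800 genes and 5% mitochondrial UMIs, -0.27 for per-cell means and -1.36 against cells with Ccl5. Against those cells the brain T cell receptor response median was 0.17, Nr4a1 0.87, Xcl1 -0.34 and Ifng -0.43. The cause was not tested. Of the values of single named genes over all alternatives, 1134 stayed within counting error and 167 moved in spinal cord, and 977 stayed, 104 moved and 3 turned in brain. Brain depth limits the rest: the floor of 3 counts set for a count of 0 stands at 16.8 CPM in the brain Gzmk/Eomes/Ccl5 cells.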
